A study of Arabidopsis thaliana with 3 samples.

Results

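The genome sites described here are the SOB3-GFP regions of the Arabidopsis pericentromeres, the stretches of packed chromatin on either side of each centromere. A region was kept when a ChIP-seq peak of replicate 1 and a peak of replicate 2 overlapped by at least 1 bp, and when its summit lay in a fixed window of 4.8 to 7.0 Mb on its chromosome (TAIR10). The windows ran from 11.5 to 17.7 Mb on chromosome 1, 1.1 to 7.2 Mb on chromosome 2, 10.3 to 17.3 Mb on chromosome 3, 1.5 to 6.3 Mb on chromosome 4 and 9.0 to 16.0 Mb on chromosome 5. They held 948 of the 3823 regions shared by both replicates (24.8%, exact 95% interval 23.4% to 26.2%). The other 2875 lay on the chromosome arms.

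All libraries came from whole Col-0 plants of 14 days with the genotype ProSOB3::SOB3-GFP sob3-4, harvested at ZT4, which is 4 h after the lights came on, and grown at a constant 22 °C with a light phase of 16 h and a dark phase of 8 h. The fusion of SOB3 to green fluorescent protein is driven by the promoter of SOB3 itself in plants that carry the sob3-4 allele. An anti-GFP antibody served for the precipitation of 2 replicates, and 1 input library had no antibody. Whether that input was the control of the peak calls is not stated in the sources used here. If so, its signal enters only through the authors' peak values. Separate plantings for the replicates are not mentioned in the labels, so the spread between them may be technical. Precipitation from plants without the fusion was not analysed here, so signal that does not depend on SOB3-GFP was not measured, and "bound" below means only that a shared summit lies there.

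Pericentromeric heterochromatin is dense in transposons and their remnants, poor in genes, rich in DNA methylation and in methylated histone H3, and mostly silent in transcription. Expressed genes are nevertheless scattered through it. SOB3 belongs to the AT-hook motif nuclear localized (AHL) family, whose AT-hook binds the minor groove of A+T-rich DNA, and it represses elongation growth in seedlings. No genome sequence was used here, so base composition and motifs of these regions are not described.

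The annotation bore out the name of the windows. They held 109 protein-coding genes per Mb, against 273 per Mb on the arms, and 121 pseudogenes per Mb, a class that in this annotation takes in transposon remnants, against 12.1 per Mb. Of all annotated pseudogenes, 78.0% lay in the windows, which make up 26.1% of the length analysed. The outermost bins of 0.5 Mb were less typical: they held up to 136 protein-coding genes, about the density of the arms. No mark of heterochromatin was measured in these plants.

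SOB3-GFP regions were nearly as dense in the windows as on the arms, although genes were far sparser there. There were 30.5 regions per Mb in the windows and 32.7 per Mb on the arms, a ratio of 0.933 (interval from the exact binomial limits of the share 0.866 to 1.005, counting error only). The ratio was 0.952, 0.807, 0.989, 0.744 and 1.11 on chromosomes 1 to 5, so it was under 1 on 4 of the 5 chromosomes. The ratio was above 1 with a reciprocal overlap of 50% (1.08), at −log10 q of at least 10 (1.06) and in the replicate 2 list alone (1.04). With windows 0.5 Mb wider at both ends it was 1.0045. The intervals of these ratios all included 1, as did that of 0.933. Other settings gave ratios under 1 with intervals that excluded 1. The ratio was 0.885 (0.816 to 0.958) with windows 0.5 Mb narrower at both ends. It was 0.696 (0.519 to 0.923) with the top 1000 peaks of each list. The replicate 1 list alone gave 0.536 (0.507 to 0.565). The order thus depended on the setting and was not resolved at the reported one. Set against genes, the order turned: the windows held 28.0 regions per 100 protein-coding genes and the arms 11.9, with the higher value in the windows on 5 of 5 chromosomes. The members numbered 194, 177, 217, 116 and 244 on chromosomes 1 to 5.

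The strongest shared site of the whole genome, ranked by the lower of the 2 replicate folds, was pericentromeric. It spanned 11550433 to 11551036 on chromosome 3, with its summit inside AT3G29720, a protein-coding gene known here by its locus tag alone. The authors' fold enrichment there, a linear ratio of ChIP signal to control at the summit, was 7.46 in replicate 1 and 6.38 in replicate 2. Of the 10 strongest shared regions of the genome 5 were pericentromeric, as were 26 of the strongest 100, close to the share of members among all shared regions.

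The next strongest was at AT4G09520 (chromosome 4, 6027020 to 6027655), with folds of 7.44 and 5.71 and the summit 196 bp outside the gene. A region 6168 bp from AT5G30495 (chromosome 5, 11387612 to 11388124) had folds of 5.54 and 5.32. The region nearest to CYP96A8 (AT1G47620), a cytochrome P450 gene, lay 2258 bp away (chromosome 1, 17511719 to 17512287) and had folds of 5.05 and 5.34. These leading sites thus lay in 3 kinds of place, inside a gene, beside one, and several kilobases from any.

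On chromosome 2 the strongest region was 2693 bp from AT2G12646 (5163919 to 5164564), with folds of 5.06 and 5.03. It was followed there by the region 7160 bp from AT2G04115 (1393026 to 1393634), at 5.41 and 4.60. On chromosome 4 the region 1581 bp from AT4G03740 (1660219 to 1660649) had folds of 4.98 and 4.60. Each of these 3 lay farther than 1 kb from the nearest protein-coding gene.

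Among regions beside genes of known function, PAP19 (AT3G46120), which encodes a purple acid phosphatase, carried a summit inside its span (chromosome 3, 16937302 to 16937918) with folds of 4.27 and 4.38. RVE2 (AT5G37260), a MYB-like gene of the family of clock factors, had a summit 491 bp outside its span (chromosome 5, 14753098 to 14753821), where replicate 1 reached a fold of 4.15 and replicate 2 one of 4.14. HOS10 (AT1G35515), a MYB gene named for its osmotic stress phenotype, had a wide region of 1403 bp 1413 bp away (chromosome 1, 13075289 to 13076691), with folds of 5.096 and 4.07. The replicates differed most at HOS10 among these 3 and least at RVE2.

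The region nearest to ARGAH2 (AT4G08870), an arginase gene, lay 2118 bp from it and inside the pseudogene AT4G08860 (chromosome 4, 5644118 to 5644448). Its folds were 4.14 and 4.11, the highest of the 14 members whose summit fell inside an annotated gene other than a protein-coding one. The strongest 20 members had lower folds of 3.94 to 6.38. Of these 20 summits, 2 lay inside a protein-coding gene, 7 within 1 kb of one, 1 inside another gene and 10 farther away, and 15 of the 20 nearest genes had only a locus tag. Replicate 1 had the higher fold in 11 of them, and the summits of the replicates were at most 74 bp apart.

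**Figure D1:**
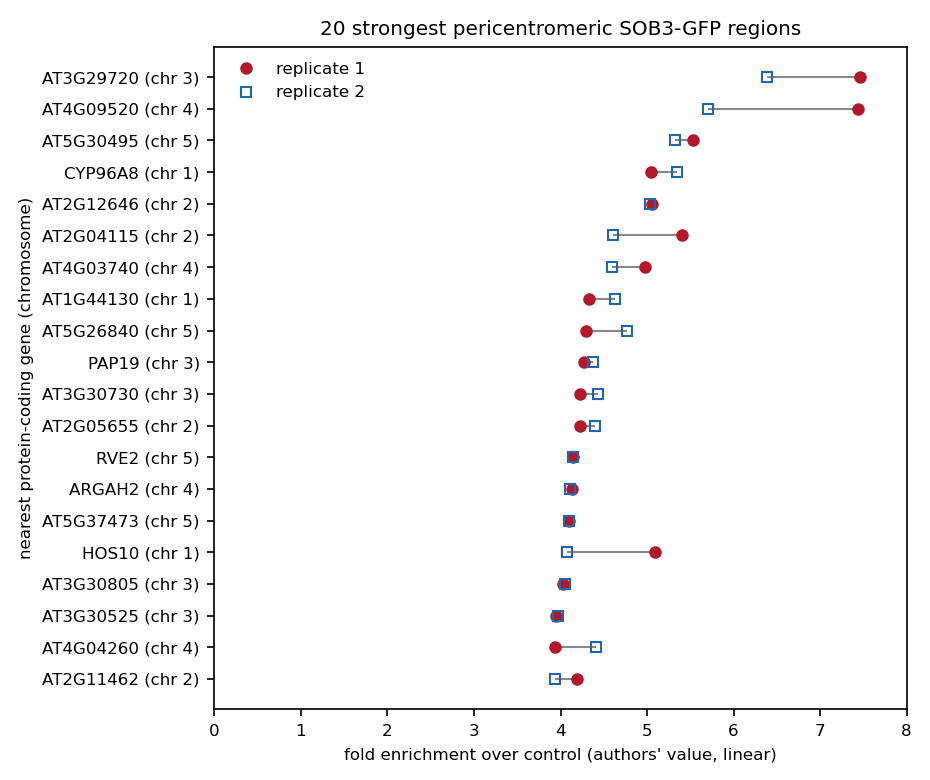
Fold enrichment over control (authors' linear values) at the 20 pericentromeric regions with the highest lower fold, 1 row per region named by its nearest protein-coding gene; filled circles are replicate 1 and open squares replicate 2. The regions at AT3G29720 and AT4G09520 stand above the rest in both replicates, and the others lie between 3.94 and 5.54.

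The control signal under these leading sites was at most 25.1, while that of all members reached 43. These sites were chosen by fold, which has the control as its divisor, so the choice favours low control values. The control signal was recovered from the authors' fold and −log10 p columns, in units of the control pileup. At the strongest 20 it was 15.4 to 25.1 in replicate 1 and 15.1 to 24.5 in replicate 2, where 15.4 and 15.1 were the lowest values of either list. Over all members the median control value was 20.1 in replicate 1 and 19.8 in replicate 2, against 19.8 and 19.0 on the arms. The ratios of members to arm regions were 1.02 and 1.04. The columns allowed more than 1 solution for 90.1% of replicate 2 peaks, and with only peaks of 1 solution the ratios were 1.01 and 0.979, so in replicate 2 the order turned. At −log10 q of at least 10 the replicate 2 ratio was 1.00.

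Control values of at least 30 were more frequent among members, at 4.85% in replicate 1 and 2.74% in replicate 2, than among arm regions, at 2.504% and 1.74%. The lowest control value of a list was also more frequent among members, at 6.96% and 8.02%, than among arm regions, at 4.17% and 4.38%. That value was a floor, held exactly by 66 members in replicate 1 and 76 in replicate 2, so no spread below it can be seen. The highest control values, 43 in both replicates, were at a region 744 bp from AT5G27495 (chromosome 5, 9707339 to 9707620), with folds of 2.003 and 1.78. The 6 members with the highest control values had folds of 1.96 to 2.83 in replicate 1 and 1.78 to 2.88 in replicate 2. Members thus lay more often than arm regions both at this floor and at high control values. Whether repeated sequence, to which short reads align poorly, had a part in these values was not tested.

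Within the windows the regions thinned out towards the middle. Each window was split along its length into a central part and a flanking part on each side, all of equal length. The central parts held 14.3 regions per Mb and the flanking parts 38.6 per Mb. The same order held on 5 of 5 chromosomes, with 10.6 against 41.6 on chromosome 1, 16.2 against 35.4 on chromosome 2, 14.6 against 39.2 on chromosome 3, 8.75 against 31.9 on chromosome 4 and 19.3 against 42.6 on chromosome 5. Genes thinned out more steeply still, from 143 to 40.7 protein-coding genes per Mb. Per 100 protein-coding genes there were 35.1 regions in the central parts and 27.0 in the flanking parts, an order that held on 4 chromosomes and turned on chromosome 2 (18.4 against 28.2).

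Over the 61 full bins of 0.5 Mb the count ranged from 0 to 32, with a median of 14. Spearman's rho of the count with the number of protein-coding genes in the bin was 0.705, and with the number of pseudogenes −0.629. These are descriptions: bins are neighbours on 5 chromosomes, come from the same 2 libraries, and differ together in many properties. The bin with 32 regions, from 10.5 to 11 Mb on chromosome 5, held 34 protein-coding genes, whereas the bin from 15.5 to 16 Mb on the same chromosome held 17 regions and 136 genes. The only full bin without a region was at 14.5 to 15 Mb on chromosome 1.

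The widest stretch without a shared region was 754 kb on chromosome 1, with 350.7 kb on chromosome 2, 522 kb on chromosome 3, 492 kb on chromosome 4 and 474 kb on chromosome 5. On 4 of the chromosomes these gaps were gene-poor, with 5 to 10 protein-coding genes. The gap on chromosome 2 was the exception. It ran between summits at 3212947 and 3563665, held 97 protein-coding genes (277 per Mb, about the density of the arms), and contained 1 peak of each list. A large insertion of mitochondrial DNA is known near the centromere of this chromosome; the overlap of the gap with it, and how reads that also match mitochondrial DNA were handled, were not tested.

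Near the other end of the scale, neighbouring members often lay close together. Of 943 spacings between neighbouring summits, 130 (13.8%) were under 2 kb, against 10.9% on the arms. The median spacing was 14805 bp among members and 17704 bp on the arms. Spacings over 100 kb made up 6.57% among members and 5.24% on the arms. The windows thus held more of the shortest and more of the longest spacings.

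**Figure D2:**
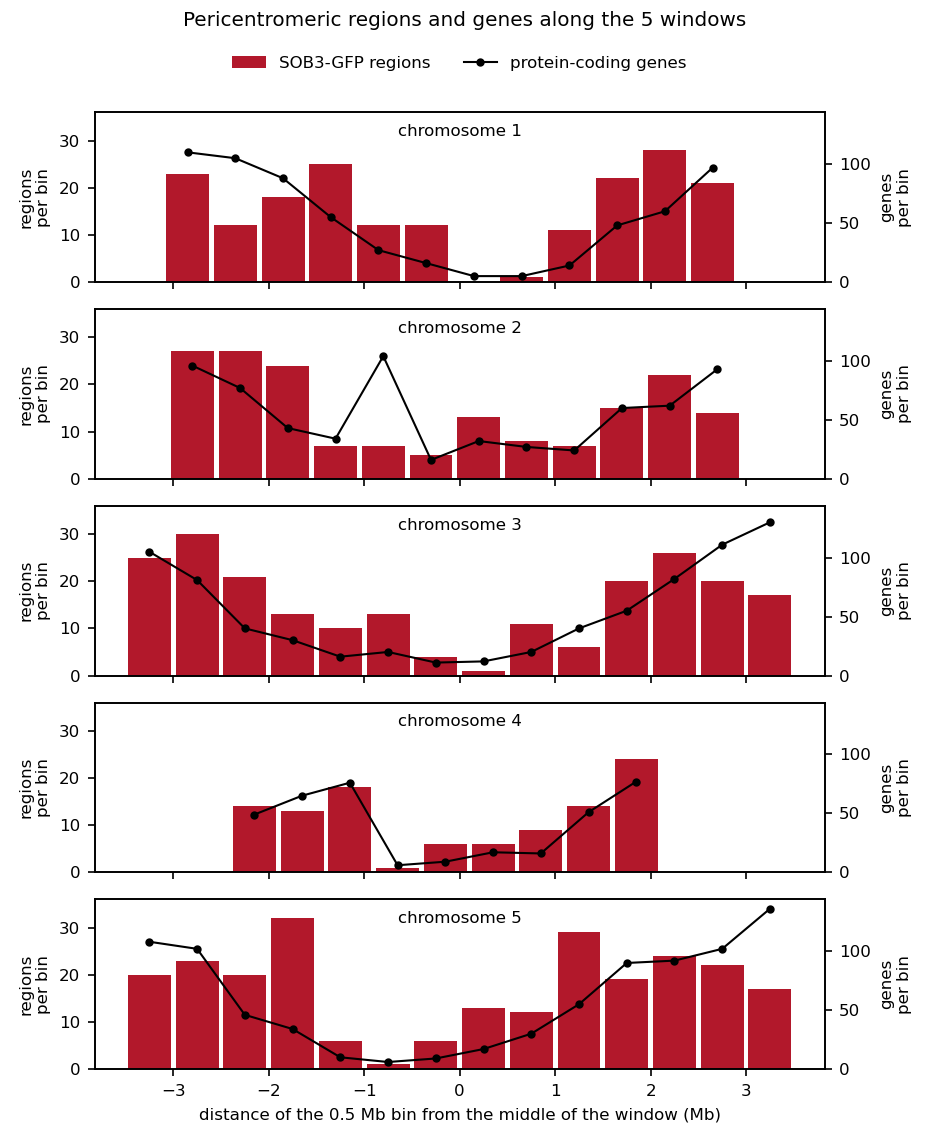
Shared SOB3-GFP regions (red bars, left axis) and protein-coding genes (black line, right axis) in bins of 0.5 Mb, against the distance of the bin from the middle of its window in Mb; partial bins at the right ends are left out. Both fall towards the middle, and on chromosome 2 a bin with 104 genes holds 7 regions.

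Members lay mainly outside genes, as did arm regions, but farther from them. There were 513 of 948 summits (54.1%, with an exact 95% interval from 50.9% to 57.3%) that had no protein-coding gene within 1 kb and lay outside all annotated genes. A further 343 (36.2%) lay within 1 kb of a protein-coding gene, 78 (8.23%) inside one, and 14 (1.48%) inside another annotated gene. On the arms the same classes held 23.2%, 54.9%, 20.3% and 1.57%.

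The windows offer fewer positions near genes, so each share was set beside that of all positions at steps of 100 bp in the same windows. Positions within 1 kb of a protein-coding gene made up 13.2% of the windows and 21.1% of the arms, so summits were 2.74 times as frequent there as positions in the windows and 2.60 times on the arms. In the windows this ratio was 2.51 to 2.94 on the 5 chromosomes. Inside protein-coding genes the ratios were 0.378 in the windows and 0.309 on the arms. The bias to the flanks of genes and away from their bodies was therefore of like size in both places. Farther than 1 kb the ratio was lower in the windows, at 1.49 against 2.33. Not all positions can be reached by uniquely aligned reads, and that share was not used here.

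Members were rare inside annotated pseudogenes. Spans of pseudogenes covered 27.5% of window positions and held 11 of 948 summits (1.16%, exact 95% interval 0.581% to 2.07%), a ratio of 0.0421. On chromosome 5 none of 244 summits lay in one, which allows a share of up to 1.5005% (exact 95% limit), although 25.3% of positions did. On the other chromosomes 2, 3, 3 and 3 summits did. On the arms pseudogenes covered 2.16% of positions and held 6 of 2875 summits (0.209%). Whether reads could be placed uniquely in these pseudogenes was not tested.

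The lower folds of the 11 members inside pseudogenes ranged from 2.14 to 4.11, with 8 above and 3 below the median of all members. Besides the region near ARGAH2, AT2G14843 carried folds of 3.18 and 3.41 (chromosome 2, 6379684 to 6380271). The pseudogene AT3G42206 on chromosome 3 held a pair of members far from protein-coding genes. The first lay 49627 bp from the nearest (14378095 to 14378477, folds 3.05 and 3.13), and the second 50724 bp (14379247 to 14379559, folds 2.51 and 2.67). Both lay 0.58 Mb from the middle of the window.

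Summits more than 10 kb from any protein-coding gene occurred only in the windows among shared regions, with 89 members (9.39%) and 0 of 2875 arm regions. Such positions made up 27.8% of the windows and 0.0669% of the arms, so members were rarer there than positions by a ratio of 0.338. Going outwards from genes in the windows, the ratio of summits to positions was 2.11 in the first 100 bp, 2.67 from there to 250 bp, 2.76 to 500 bp, 2.32 to 1000 bp, 1.89 to 2000 bp, 1.30 to 5000 bp and 0.815 to 10000 bp. On the arms the ratio was highest between 100 and 250 bp, at 2.98. Outside genes the median distance to the nearest protein-coding gene was 1483 bp for 870 members, 500 bp for 2292 arm regions and 5141 bp for window positions.

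The member farthest from any protein-coding gene lay 60066 bp from AT3G42310 (chromosome 3, 14399655 to 14399974), with folds of 2.22 and 3.04. A neighbour of it at 14400031 to 14400382 had folds of 2.19 and 2.61. Replicate 2 was the higher in both.

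**Figure D3:**
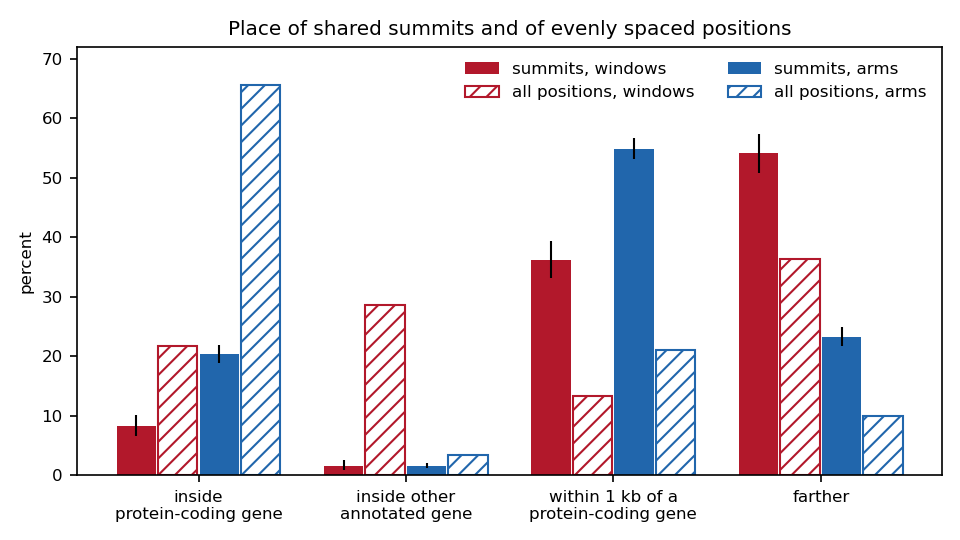
Percent of shared summits (filled bars, with exact 95% binomial intervals) and of positions at every 100 bp (hatched bars) in each gene class, for windows (red) and arms (blue); farther means over 1 kb from a protein-coding gene and outside other genes. In both places summits exceed positions within 1 kb of a gene, and in the windows 1.48% of summits against 28.7% of positions lie inside other annotated genes.

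The peak counts of the replicates were closer in the windows than on the arms. The windows held 1588 peaks of replicate 1 (15.9% of its list) and 1285 of replicate 2 (26.8% of its list). Replicate 1 thus had 1.24 times as many peaks as replicate 2 in the windows and 2.40 times on the arms, and the ratio was lower in the windows on 5 of 5 chromosomes. In the central parts replicate 1 had fewer peaks than replicate 2, with 203 against 218. This order held on 3 of 5 chromosomes and not on chromosome 1 (36 against 35) or chromosome 5 (60 against 55).

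Of the replicate 1 peaks in the windows, 952 (59.95%, exact 95% interval 57.5% to 62.4%) overlapped a replicate 2 peak, against 34.4% on the arms (33.4% to 35.5%) and a background of 38.5% over the whole list. Of the replicate 2 peaks in the windows, 961 (74.8%, 72.3% to 77.1%) overlapped a replicate 1 peak, against 84.5% on the arms (83.3% to 85.7%) and 81.9% over the whole list. So a pericentromeric peak was more often shared than an arm peak when it came from replicate 1, and less often when it came from replicate 2. Both differences had the same direction on 5 of 5 chromosomes. The shares of the 2 lists depend on each other, since a longer list leaves more peaks without a partner.

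The difference was also present among peaks of like strength. Within deciles of −log10 q the share of replicate 1 peaks with a partner was higher in the windows in 10 of 10 deciles, from 41.2% against 13.4% in the weakest to 87.6% against 77.2% in the strongest. The share of replicate 2 peaks was lower in the windows in 9 of 10 deciles and reached 98.7% against 98.5% in the strongest. It was also present within gene classes. Among replicate 1 peaks farther than 1 kb from a gene, 67.6% had a partner in the windows and 38.6% on the arms, and inside protein-coding genes 38.7% and 27.7%.

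**Figure D4:**
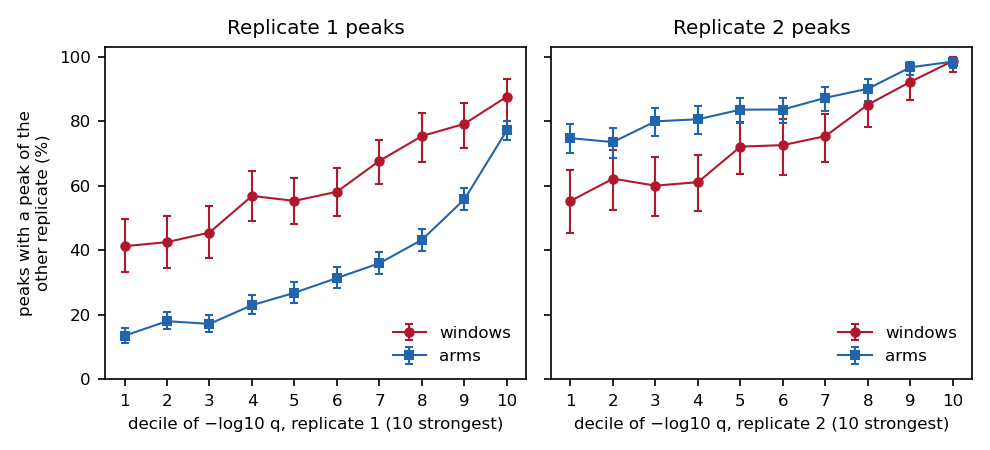
Percent of peaks that overlap a peak of the other replicate, by decile of −log10 q within each list (10 is the strongest), for windows (red circles) and arms (blue squares) with exact 95% binomial intervals. In replicate 1 the windows lie above the arms in every decile, and in replicate 2 below them in all but the strongest.

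The folds of shared regions also set the replicates apart, but they come only from peaks that the rule kept. In replicate 1 the median fold was 2.66 among members (quartiles 2.31 and 3.13, range 1.62 to 7.46) and 3.002 on the arms. In replicate 2 it was 2.61 among members (quartiles 2.28 and 3.02, range 1.65 to 6.38) and 2.51 on the arms. Members were thus lower than arm regions in replicate 1 and slightly higher in replicate 2. The rule kept 59.95% of replicate 1 peaks in the windows and 34.4% on the arms, so these medians depend on it. Over all replicate 1 peaks the medians were nearly equal, at 2.55 in the windows and 2.58 on the arms. Over all replicate 2 peaks they were 2.51 and 2.47. The lower fold of both was nearly the same in both places, with medians of 2.44 and 2.43.

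Replicate 1 had the higher fold in 53.5% of members (exact 95% interval 50.2% to 56.7%) and in 71.9% of arm regions (70.2% to 73.6%), with the lower share in the windows on 5 of 5 chromosomes. With the top 1000 peaks of each list these shares were 83.9% of 62 members and 96.4% of arm regions. Replicate 1 exceeded 1.5 times replicate 2 in 5.91% of members and 23.5% of arm regions. Of the 100 shared regions with the highest replicate 1 fold 7 were pericentromeric, and of the 100 with the highest replicate 2 fold 29 were. The strongest sites of replicate 1 were therefore mostly on the arms, while those of replicate 2 were spread about as all shared regions were. The recovered pileup, which is the ChIP signal before division by the control, had a median ratio of replicate 1 to replicate 2 of 1.05 among members and 1.19 on the arms.

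The balance of the replicates varied with the place of the summit. Inside protein-coding genes replicate 1 was higher in 76.9% of 78 members and 76.8% of 583 arm regions. Within 1 kb of a gene it was higher in 59.8% of members and 71.6% of arm regions, and farther away in 46.2% and 67.4%. In the central parts of the windows the share was 46.6% and in the flanking parts 54.75%. Inside another annotated gene it was higher in 5 of 14 members (35.7%) and 40 of 45 arm regions (88.9%). Windows and arms thus lay close together inside protein-coding genes and apart in the other places.

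Single members show the range. The region 706 bp from XTH31 (AT3G44990), a gene for a cell wall xyloglucan-modifying enzyme, reached 4.17-fold enrichment in replicate 1 and 1.70-fold in replicate 2 (chromosome 3, 16445896 to 16447200), with summits 571 bp apart. The region nearest to BZO2H3 (AT5G28770), a bZIP transcription factor gene, had folds of 6.02 and 2.63 (chromosome 5, 10800317 to 10800849). At the other end, a region 20423 bp from AT2G06904 had folds of 2.69 and 4.86 (chromosome 2, 2786021 to 2786364). These 3 were chosen after their values were seen.

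**Figure D5:**
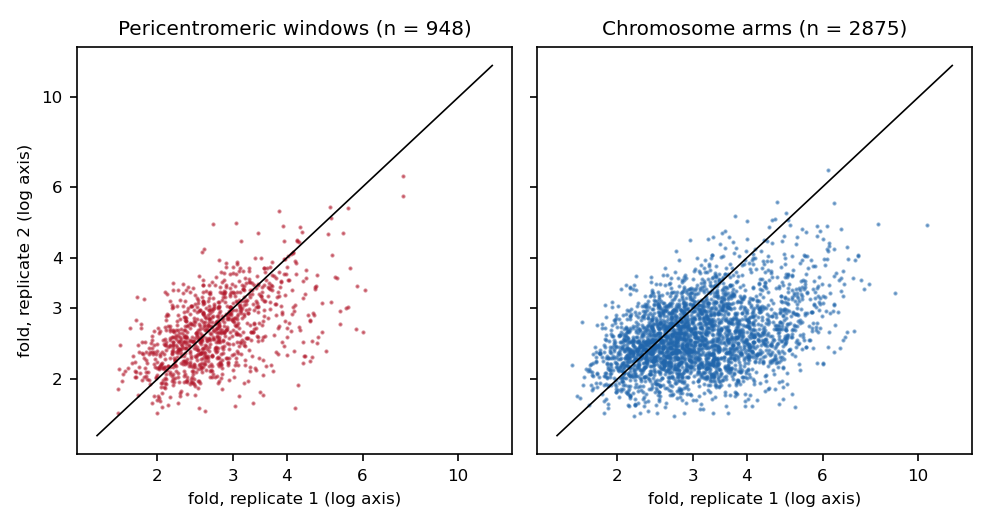
Fold of replicate 2 against fold of replicate 1 (both log axes, authors' values) for the 948 pericentromeric and 2875 arm regions, 1 point per region; the line marks equal folds. The pericentromeric points lie on both sides of the line, and 71.9% of the arm points lie below it.

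As merged regions, members were also narrower, with a median width of 398 bp (range 224 to 1451 bp) against 461 bp on the arms. The replicates differed in this. Peaks with a partner had a median width of 352 bp in the windows and 436 bp on the arms in replicate 1. In replicate 2 the order turned, with 325 bp and 307 bp. The summits of members agreed as closely between replicates, with a median distance of 38 bp against 39 bp, and 84.8% were within 100 bp against 80.2%. The widest member spanned AT2G10940 (chromosome 2, 4309629 to 4311079), with folds of 2.55 and 3.53.

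Protein-coding genes of the windows were bound about as often as others. A shared summit lay in the span or within 1 kb of 426 of 3383 genes (12.6%, exact 95% interval 11.5% to 13.8%), against 2729 of 24061 on the arms (11.3%, 10.9% to 11.7%) and a background of 11.5% of all 27444 genes. The share was higher in the windows on 4 of 5 chromosomes and lower on chromosome 2 (10.9% against 12.6%). It is close to the background and says little about these genes as a class. Genes with a symbol of their own stood higher, at 173 of 903 (19.2%) in the windows and 13.7% on the arms, while genes with a locus tag alone were at 10.2% and 9.82%. Counted by members, 422 of 948 reached a gene in this way, and 48 of them reached more than 1.

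Genes of light harvesting and carbon fixation were among them. LHCB2.2 (AT2G05070) and LHCB2.1 (AT2G05100), which encode antenna proteins of photosystem II, had summits inside their spans, with folds of 3.62 and 3.38 at the first (chromosome 2, 1798977 to 1799443) and of 2.93 and 2.92 at the second (1822754 to 1823496). Of the genes for the small subunit of Rubisco, RBCS3B (AT5G38410) had folds of 3.97 and 3.24 (chromosome 5, 15376636 to 15377432), RBCS1B (AT5G38430) 2.69 and 2.06, and RBCS2B (AT5G38420) 2.30 and 2.04. The copies of LHCB2 and of RBCS are near-identical neighbours, so which copy carries the signal is uncertain. The list of growth, hormone and photosynthesis genes had 8 of 20 (40%) bound in the windows and 36 of 131 (27.5%) on the arms. Of all genes with a symbol 19.2% were bound in the windows and 13.7% on the arms. The 8 include the LHCB2 and RBCS copies above, so they may not be 8 separate signals.

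Growth genes made up the other 3. GA2OX4 (AT1G47990), which inactivates gibberellins, had a summit inside its span with folds of 2.34 and 2.40 (chromosome 1, 17699021 to 17699337), just inside the edge of the window. EXPA5 (AT3G29030), a cell wall expansin, had folds of 2.23 and 2.73, 634 bp away. XTH31 had a further region 819 bp away with folds of 2.21 and 2.15. The 12 genes without a shared summit were the photoreceptor gene PHYC, the gibberellin receptor gene GID1C, SAUR75, GA20OX5, XTH4, XTH10, XTH30 and the listed expansin genes from EXPA21 to EXPA25. EXP26 (AT5G39290), an expansin gene that the list did not match by its symbol, had a summit 255 bp away (chromosome 5, 15735290 to 15735701) with folds of 2.49 and 2.52.

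Of 60 genes taken for transcription factors by their symbols, 12 (20%) were bound, against 15.1% of 425 on the arms. These shares are close to those of all genes with a symbol, 19.2% in the windows and 13.7% on the arms. They say little about these families. The 60 include HB1, which encodes a haemoglobin and was matched by its symbol. HB34 (AT3G28920), a zinc finger homeodomain gene, was the strongest, with folds of 3.66 and 3.79 at 254 bp (chromosome 3, 10939694 to 10940538). Its neighbour MYB30 (AT3G28910), a regulator of defence-related cell death, had folds of 4.16 and 2.96. The MADS-box gene AGL53 (AT5G27070) had 3.22 and 2.97, and HB23 (AT5G39760), of the same family as HB34, had 3.97 and 2.78. ARF8 (AT5G37020), an auxin response factor, had 4.58 and 2.27. Replicate 1 was the higher in 4 of these 5, and HB34 was the exception. Of the ARF genes listed on chromosome 1 (ARF12 to ARF15 and ARF20 to ARF23) none was bound. Whether reads could be placed uniquely at these genes was not tested.

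Of 60 genes with kinase in their names 13 were bound (21.7%, against 15.7% on the arms). Here too the shares were close to those of all genes with a symbol, 19.2% and 13.7%. A single region lay within 1 kb of both AT3G45420 and AT3G45430, neighbours on chromosome 3 of which the first is annotated as a lectin receptor kinase (16660407 to 16660735, folds 3.06 and 3.29). PI4K GAMMA 7 (AT2G03890) had folds of 3.05 and 4.89, and NEK6 (AT3G44200), a kinase of the family that acts on microtubules, 3.66 and 2.98. MPK3 (AT3G45640), a MAP kinase of stress signalling, had 2.78 and 2.92. The receptor-like kinase genes CRK36 to CRK40 that were listed on chromosome 4 had no shared summit.

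Smaller lists held few genes in the windows. Of 17 genes with a CYP symbol 3 were bound, the P450 genes CYP71B8 (AT5G35715, folds 4.196 and 3.89) and CYP716A2 (AT5G36140, 2.87 and 3.20), and CYP71 (AT3G44600, 3.05 and 2.60), which encodes a cyclophilin. Of 11 ribosomal protein genes 2 were bound, RPL21C (AT1G35680, 2.11 and 3.25) and RPS1 (AT5G30510, 2.56 and 2.14), and of 4 F-box genes 1, FBS3 (AT4G05010, 2.71 and 3.01). These are 17.6%, 18.2% and 25%, beside 19.2% of all window genes with a symbol. The arms gave 20.3%, 7.94% and 22.2%, beside 13.7%. The differences between these shares were not tested.

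Annotated pseudogenes and RNA genes were seldom near a summit. Within 1 kb of a pseudogene lay a summit in 172 of 3777 cases in the windows (4.55%) and 6.66% on the arms. The search for transposon terms matched 9 loci in the windows, all of the SADHU retroposons, and other transposon-derived genes were not counted. Of these 9, 1 had a summit within 1 kb, SADHU9-1. It was 356 bp away (chromosome 1, 16984448 to 16984819, folds 3.57 and 3.53) and also 202 bp from the protein-coding gene AT1G44920. Of 62 tRNA genes in the windows none had a summit within 1 kb, against 27 of 563 (4.80%) on the arms. For miRNA genes the counts were 4 of 65 and 16 of 261, for long noncoding RNAs 47 of 618 and 258 of 2862, and for snoRNA genes 0 of 24 and 14 of 263.

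The window edges are fixed positions and cut through a continuous distribution. The 10 members just inside them had folds of 2.09 to 3.33 in replicate 1 and 2.09 to 3.30 in replicate 2. The 10 regions just outside had folds of 1.72 to 4.84 and 1.72 to 4.08. The nearest genes include GA2OX4 and PRE1 for regions inside, and MYB21 and PETC for regions outside. The region nearest to MYB21 lay 7211 bp from that gene, which itself falls inside the window. The region nearest to PRE1 lay 1915 bp away.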

How the data were processed

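Chromatin immunoprecipitation of SOB3-GFP was measured in 2 replicates of 1 group, each with its own peak list. The submitters' processing notes name bcl2fastq, Bowtie 0.12.9, MACS2 and the TAIR10 build. The MACS2 version, control and threshold were not given in the sources used here. The deposited lists hold the authors' fold enrichment (a linear ratio), −log10 p and −log10 q, and a score that was not used. Peaks are numbered separately in each list, so they were called per replicate. Read totals are not in the lists, so depth per library is unknown.

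Peaks were merged at an overlap of at least 1 bp. The summit is that of the replicate 1 peak of highest fold. Summit pileup and control value were solved from the fold and −log10 p columns by the MACS2 formulas, tested on simulated data. In 100% of peaks the pileup was a whole multiple, within 0.02, of 0.720 (replicate 1) or 0.821 (replicate 2); 83.6% and 90.1% of peaks had more than 1 solution, and the one nearest a whole multiple was taken. Gene spans came from RefSeq (TAIR10.1), taken to share TAIR10 coordinates; the table gives no strand, exons or sequence. Arm length runs to the last gene or peak.

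With 1 group there is no contrast and no test over samples; regions are not replicates. Values are counts, medians and exact (Clopper-Pearson) 95% intervals, which cover counting error only. Members, windows and gene lists were chosen with earlier results of these data known. Genes are named where nearest to the 20 members of highest lower fold, the 2 strongest per chromosome, the strongest of each gene class, the 4 strongest of each list, or at a window edge; others were chosen after their values were seen. No value is given for the SOB3 gene. Alternatives were other overlaps, thresholds, window edges, flanks, summits and single lists. Base composition and motifs were not run. Python 3.11.15, numpy 2.4.6, pandas 2.3.3, scipy 1.17.1 and matplotlib 3.10.9 were used.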

Additional observations from a re-analysis of the deposited data

Results flagged for a closer look

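In the windows 636 peaks of replicate 1 and 324 of replicate 2 had no partner in the other list. They were set apart because they are signal that the regions above do not use. There were no control precipitations to compare them with.

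The 636 replicate 1 peaks had a median fold of 2.41, and 19.7% of them lay inside a protein-coding gene, against 8.30% of the replicate 1 window peaks with a partner. The strongest was 68 bp from PRE1 (AT5G39860), a growth-promoting bHLH gene, with a fold of 5.16 (chromosome 5, 15957094 to 15957566); PRE1 is also the gene nearest to a shared region 1915 bp away, with folds of 3.33 and 2.28. Next were a peak inside PAP10 (AT2G16430), a purple acid phosphatase gene, at 4.77, a peak 8101 bp from the nitrate reductase gene NIA2 (AT1G37130) at 4.66, a peak 885 bp from AT2G15830 at 4.28, and a peak inside PHOT1 (AT3G45780), a blue-light receptor gene, at 4.21.

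The 324 replicate 2 peaks had a median fold of 2.31, and 56.8% lay farther than 1 kb from a protein-coding gene, against 38.8% of the replicate 1 peaks without a partner. Inside protein-coding genes lay 6.79% of them. The strongest lay 20867 bp from AT4G04110 with a fold of 3.35 (chromosome 4, 1994720 to 1995001). Peaks without a partner thus lay in or near genes more often in replicate 1 than in replicate 2. In replicate 2 their place was about that of its window peaks with a partner.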

How the results depend on the processing

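Of 70 alternative values, 38 stayed within the interval of the reported value, or within 1.5 times a count, and 32 moved; the cause was not tested unless given. A reciprocal overlap of 50% gave a share of 27.6% of shared regions in the windows. The density ratio was then 1.08, with an interval of 0.996 to 1.17. At −log10 q of at least 10 there were 165 members (27.3%, ratio 1.06) with median folds of 3.52 and 3.41, higher by construction, a control ratio of 1.00 in replicate 2 and replicate 1 higher in 57.0%. With the top 1000 peaks of each list 62 members remained (19.7%, ratio 0.696), with median folds of 4.25 and 3.57 and replicate 1 higher in 83.9%, against 96.4% on the arms. Each list alone gave 1285 to 1588 window peaks, a share of 15.9% to 26.8% and a density ratio of 0.536 to 1.04; the share farther than 1 kb from genes was 47.985% to 54.8%, and the median folds were 2.55 in replicate 1 and 2.51 in replicate 2. Whether the density ratio fell above or below 1 thus depended on the list, the overlap, the threshold and the window edges (1.0045 with wider windows). The intervals of the ratios above 1 all included 1. Those of 0.885 (narrower windows), 0.696 and 0.536 lay wholly under 1.

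Narrower windows gave 19.9% of shared regions, 57.8% farther than 1 kb and a control ratio of 1.01 in replicate 1; wider windows gave 30.4% and 48.97%, as fewer or more bases were taken in. Flanks of 500 and 2000 bp gave 68.8% and 37.2% farther away, by construction. With only peaks of 1 solution the control ratios were 1.01 and 0.979, so the slight excess of control signal in the windows depends on the choice among solutions. The balance of the replicates was added after its value was seen, and stayed lower in the windows than on the arms in all 6 alternatives run. The summit of replicate 2 moved no value. A wider stretch for A+T content was not run. No paired analysis was possible because there is 1 group with peak lists and no contrast. Read depth is not in the lists, so what depth limits is unknown.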
